A study of Mus musculus with 126 samples.

Results

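Genes of epithelial cell adhesion and of simple-epithelium intermediate filaments were measured in 126 single cells of the mouse endolymphatic sac, an inner-ear epithelium that takes up endolymph. The set was chosen by name and held 10 genes among the 48490 gene identifiers of the deposited table: Epcam, the cadherins Cdh1, Cdh2, Cdh3 and Cdh6, and the keratins Krt7, Krt8, Krt18, Krt19 and Krt20. All 10 were found. The cells were taken at E14.5 (embryonic age in days), 33 from wild-type sacs and 93 from sacs heterozygous for Y440X, a nonsense allele of the transcription factor gene Sox9 (Sox9 Y440X/+, here also called mutant). The labels name no other allele and no agent, and they tie no cell to an animal, so each genotype counts as 1 sample and no test between genotypes was possible. Levels are in FPKM, fragments scaled to transcript length and to the mapped fragments of the cell, and a gene is called detected in a cell at 1 FPKM or more. The tissue label was checked against 8 genes of sac epithelium outside the set: 114 of the 126 cells held at least 3 of them at 5 FPKM or more.

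Cells differed in ways that bear on every value below. Wild-type cells had a median of 5329 genes listed above 0, and mutants 4423. Of the wild-type cells 32, and of the mutants 4, held Y-linked transcripts at 1 FPKM, and the prefix of the cell titles, which the labels do not explain, was shared between genotypes by 1 wild-type cell only. Genotype, title prefix and sex-linked expression therefore cannot be told apart. By at least 3 of 8 markers at 5 FPKM or more, a limit set after the values had been seen, 12 cells (3 wild-type, 9 mutant) held markers of the mitochondria-rich cells of the sac, such as Foxi1 and the proton pump gene Atp6v1b1. Mesenchymal markers were held by 12 cells (2 wild-type, 10 mutant), of which 1 mutant cell also held all 8 mitochondria-rich markers and was placed in that class, leaving 11 in the mesenchymal-marker class. The other 103 cells are called unmarked cells here, which means only that they held neither of these marker sets. Among them are 1 mutant cell with all 5 endothelial markers and 1 with 3 of the 5 at 1 FPKM. Each of these held 0 of the 8 sac epithelium genes, and both are in all values over unmarked mutant cells. Cells were also divided by the retinaldehyde dehydrogenase gene with the higher level, Aldh1a1 (14 wild-type and 41 mutant cells) or Aldh1a3 (17 and 36 cells), and 18 cells had neither at 1 FPKM.

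Classical cadherins are transmembrane proteins that bind the same cadherin on a neighbouring cell and are tied to actin by catenins at adherens junctions. Cdh1 (E-cadherin) is the cadherin of most epithelia and Cdh2 (N-cadherin) is best known from neural and mesenchymal cells, though some epithelia hold both. Epcam is a membrane glycoprotein of simple epithelia that also affects claudins and adhesion. Keratins form filaments from obligate pairs of a type II and a type I chain, and Krt8 with Krt18 is the founding pair of simple epithelia.

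The promoters of Krt8, Krt18 and Epcam are shown because these genes were detected in almost the same cells. Their levels correlated over all cells, but for Epcam with the keratins the correlation was low over unmarked wild-type cells (values below). Each stretch holds 250 bases before and 50 after the start annotated by RefSeq on GRCm38.p6 (the assembly also called mm10), 5′ to 3′ on the strand of the gene, and capitals mark matches to the searched motifs. Krt8 lies on the minus strand at chr15:102004293-102004592, Krt18 on the plus strand at chr15:102027966-102028265 and Epcam on the plus strand at chr17:87635729-87636028.
Krt8: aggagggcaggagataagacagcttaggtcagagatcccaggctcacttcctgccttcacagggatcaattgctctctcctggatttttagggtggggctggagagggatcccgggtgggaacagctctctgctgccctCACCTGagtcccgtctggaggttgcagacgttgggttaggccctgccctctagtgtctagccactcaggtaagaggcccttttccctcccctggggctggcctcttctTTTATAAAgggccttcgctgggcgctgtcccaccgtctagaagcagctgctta
Krt18: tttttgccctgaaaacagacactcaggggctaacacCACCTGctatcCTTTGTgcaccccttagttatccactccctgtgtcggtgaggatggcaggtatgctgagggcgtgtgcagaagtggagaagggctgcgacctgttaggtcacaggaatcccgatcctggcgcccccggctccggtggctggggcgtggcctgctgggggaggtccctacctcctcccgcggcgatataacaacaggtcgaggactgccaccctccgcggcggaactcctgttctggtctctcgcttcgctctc
Epcam: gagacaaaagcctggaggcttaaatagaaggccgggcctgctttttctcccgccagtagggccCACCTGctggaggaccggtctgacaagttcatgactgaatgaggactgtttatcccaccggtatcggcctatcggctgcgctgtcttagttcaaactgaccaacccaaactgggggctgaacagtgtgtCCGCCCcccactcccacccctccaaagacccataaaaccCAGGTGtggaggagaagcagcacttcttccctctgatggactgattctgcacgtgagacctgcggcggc
The motifs searched, on both strands, were TATAAA (the TATA box), GGGCGG (GC box), CACCTG (an E-box), ACAANG (a SOX core), TGANTCA (AP-1) and AACNGGTT (grainyhead). CACCTG was found in all 3 stretches, at -111 from the start in Krt8, at -214 in Krt18 and at -187 in Epcam, with a further match on the opposite strand at -19 in Epcam. It also stood at -44 of Krt7, and 20.2% of all 32851 mouse promoters of this length held it. In the Krt8 stretch TATAAA at -1 and its reverse form TTTATA at -3 overlap, and TATAAA was present in 13.6% of all promoters. A GC box on the opposite strand stood at -58 of Epcam (35.7% of all promoters), and a SOX core on the opposite strand at -203 of Krt18 (41.2%). No match to TGANTCA or AACNGGTT lay in these windows. Promoters of 6 of the 10 genes were matched by symbol.

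Krt8 and Krt18 were the highest of the 10 genes in both genotypes. Krt8, the type II chain, was listed from 0 to 3484 FPKM in wild-type cells with a median of 1241 FPKM, and from 0 to 4147 FPKM in mutant cells with a median of 1281 FPKM. Krt18, its type I partner, ranged from 0 to 2608 FPKM with a median of 1331 FPKM in wild type and from 0 to 3498 FPKM with a median of 1230 FPKM in the mutant. The genotypes overlapped over almost the whole range of both genes. For Krt8, 32 of 33 wild-type cells passed 1 FPKM (97.0%, exact Clopper-Pearson 95% interval 84.2 to 99.9%), as did 84 of 93 in the mutant (90.3%, 82.4 to 95.5%). These intervals cover counting error over cells only, not the spread between animals.

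**Figure D1:**
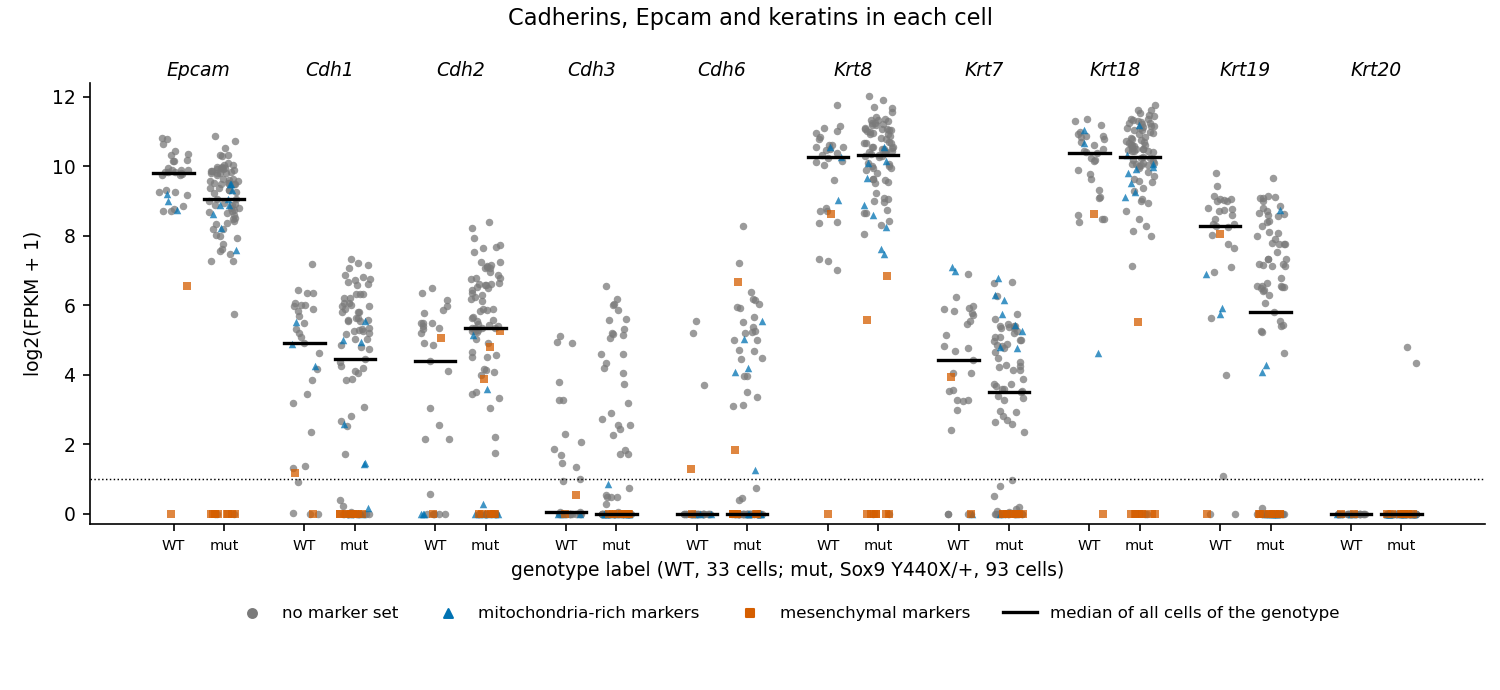
Level of each gene as log2(FPKM + 1) in each of the 33 wild-type (WT) and 93 Sox9 Y440X/+ (mut) cells; every point is a cell, its shape and colour give the marker set it holds, black bars are medians and the dotted line is 1 FPKM. Krt8 and Krt18 sit highest with medians near 10 in both genotypes, Krt19 has a lower median in the mutant, and most cells with mesenchymal markers (squares) lie at 0 for Epcam and the keratins.

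The keratin pair was detected together in nearly every cell that held either. The pair was present in 97.0% of wild type (32 of 33 cells, 84.2 to 99.9%) and 89.2% of the mutant (83 of 93 cells, 81.1 to 94.7%). A single cell, a mutant cell with mesenchymal markers, held Krt8 (113 FPKM) without Krt18, and no cell held Krt18 without Krt8. All 10 cells without Krt8 stood apart in other markers: 8 held mesenchymal markers, 1 held all 5 endothelial markers (summed level 877 FPKM), and 1 held 3 of the 5 endothelial markers (48.4 FPKM) and only 2 of 5 genes that every cell uses. Of the 9 mutant cells without Krt8, 7 held mesenchymal markers, and the pair was present in all 28 unmarked wild-type cells and 73 of the 75 unmarked mutants.

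Within most cells that held both, the transcript levels of Krt8 and Krt18 lay within 2-fold of each other, and protein was not measured. Over the 115 cells with both, the log2 ratio of Krt8 to Krt18 had a median of -0.09, with a range from -3.38 to 4.46, and 91 cells (79.1%) lay within 2-fold. The median ratio was -0.21 over 32 wild-type cells and 0.01 over 83 mutants. With Krt7 added to the type II side and Krt19 and Krt20 to the type I side, the median log2 ratio of type II to type I was -0.26. Of the summed level of the 5 keratins, Krt8 made up a median of 44.1% and Krt18 of 47.6% over the 117 cells that held any, Krt19 5.12% and Krt7 0.524%.

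**Figure D2:**
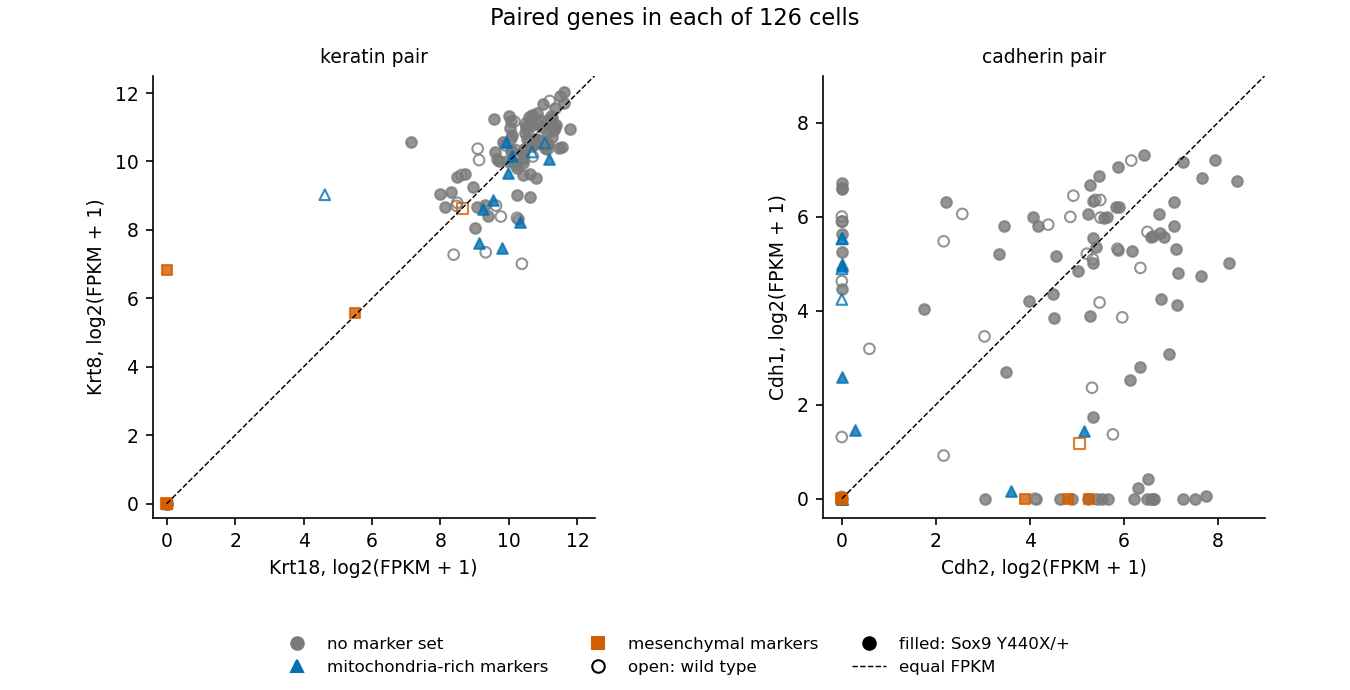
Each of the 126 cells by its levels of Krt18 and Krt8 (left) and of Cdh2 and Cdh1 (right), as log2(FPKM + 1); open symbols are wild type, filled ones Sox9 Y440X/+, shapes give the marker set and the dashed line marks equal FPKM. The keratins follow the line (91 of 115 cells within 2-fold), whereas cells with Cdh1 and Cdh2 are spread over the plane and along both axes (30 of 70 within 2-fold).

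The levels of Krt8 and Krt18 varied together across cells, with Pearson's r of log2(FPKM + 1) of 0.93 over all 126 cells. It was 0.87 over the 103 unmarked cells, 0.62 over the 28 wild-type and 0.91 over the 75 mutant cells among them. The unmarked mutants include the cells with endothelial markers, which lacked both keratins, and their part in r was not tested. The cells share a table and differ in depth, and r of Krt8 with the number of listed genes was 0.04. The part of depth in the correlation of the pair was not tested. The transcripts read from the genes do not overlap: Krt8 occupies chr15:101996711-102004342 and Krt18 chr15:102028216-102032026 on the other strand, with 23874 bases between the starts. A processed Krt8 copy, Krt8-ps, did not pass 6.06 FPKM in any cell.

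Epcam was high in almost all cells outside the mesenchymal-marker class. Wild-type cells ranged from 0 to 1787 FPKM with a median of 886 FPKM, and mutant cells from 0 to 1882 FPKM with a median of 528 FPKM. Detection was 97.0% in wild type (32 of 33 cells, 84.2 to 99.9%) and 87.1% in the mutant (81 of 93 cells, 78.5 to 93.2%). Epcam lies at chr17:87635979-87651106 on the plus strand. Every one of the 113 cells with Epcam also held Krt8 and Krt18, and 2 cells held the keratin pair without Epcam. The gene most like Epcam over 126 cells was Spint2, a membrane-bound inhibitor of serine proteases (r = 0.95), followed by Krt18 (0.88) and the claudin gene Cldn3 (0.87), among 6202 candidate genes. Over the 103 unmarked cells Spint2 came first (0.84), and Itm2b and Bsg (0.72 each) took the places of Krt18 and Cldn3. There r of Epcam was 0.67 with Krt18 and 0.65 with Krt8, and over the 28 unmarked wild-type cells it was 0.12 and 0.37. For Krt8 the genes most like it were Krt18 (0.93), Spint2 (0.88) and Epcam (0.86), and for Krt18 they were Krt8, Spint2 (0.91) and Cldn3 (0.89). Over unmarked cells those of Krt8 were Krt18 (0.87), Hspb1 and Spint2 (0.69 each), and those of Krt18 were Krt8, Spint2 (0.74) and Cldn3 (0.72).

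Epcam was lower in the mutant cells than in the wild-type cells. The mean of log2(FPKM + 1) was 7.94 in the mutant and 9.32 in wild type. The difference is given relative to the median difference of all genes tested, which was -0.30, and a relative difference of at least 1 on the log2 scale, that is 2-fold, is called. The relative difference of Epcam was -1.08. It was -0.71 over unmarked cells, short of 2-fold, and it fell short in 5 of 14 alternative settings in all. The part of depth and of the marker-holding cells in it was not tested.

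Krt19, a type I keratin that lacks the tail domain of the others, had the largest relative difference of the set between genotypes by mean log2(FPKM + 1) over all cells. By the log2 of mean FPKM it was -1.07 and Cdh6 was larger at 2.28. Wild-type cells ranged from 0 to 894 FPKM with a median of 312 FPKM, mutant cells from 0 to 806 FPKM with a median of 55.4 FPKM. The ranges overlapped, but 25 of 33 wild-type cells and 35 of 93 mutant cells were above 100 FPKM. Krt19 passed 1 FPKM in 90.9% of wild type (30 of 33 cells, 75.7 to 98.1%) but 59.1% of the mutant (55 of 93 cells, 48.5 to 69.2%). Its relative difference, mutant minus wild type, was -2.46 over all cells and -1.98 over unmarked cells, and it was past 2-fold in all 14 alternative settings (from -3.76 to -1.07). In the 12 wild-type and 61 mutant cells with 3000 to 5000 listed genes it was detected in 100% and 63.9%. Krt19 lies at chr11:100140810-100148665 and Krt20 at chr11:99428403-99438150, both on the minus strand.

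Krt7, a type II keratin of ducts and glands at chr15:101411043-101430313, was far below Krt8. It ranged from 0 to 136 FPKM with a median of 20.4 FPKM in wild type and from 0 to 110 FPKM with a median of 10.4 FPKM in the mutant, with wide overlap. Detection was 81.8% in wild type (27 of 33 cells, 64.5 to 93%) and 61.3% in the mutant (57 of 93 cells, 50.6 to 71.2%), and its relative difference of -0.85 did not pass 2-fold. Krt7 and Krt19 shared 25 of the 33 wild-type cells but 39 of the 93 mutants, and neither was found in 1 and 20 cells. In all, 25 wild-type cells held 4 of the 5 keratins and 7 held 3, while 38 mutant cells held 4 and 34 held 3.

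Krt20, a type I keratin known from intestinal and urothelial epithelium, was listed at 0 in each of the 33 wild-type cells, and 0 of 33 is compatible with a share of at most 9.09%. In the mutant 2 of 93 held it (2.15%, 0.262 to 7.55%). One was an Aldh1a1-dominant cell with 27.1 FPKM of Krt20 beside 744 FPKM of Krt8. The other, with 19.5 FPKM, was the cell with all 5 endothelial markers and held no other keratin.

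Among the cadherins Cdh1 and Cdh2 were detected most often. Cdh1 ranged from 0 to 146 FPKM with a median of 29.1 FPKM in wild type and from 0 to 160 FPKM with a median of 21 FPKM in the mutant. Detection was 84.8% (28 of 33 cells, 68.1 to 94.9%) and 66.7% (62 of 93 cells, 56.1 to 76.1%), and the relative difference was -0.32. The levels overlapped almost fully.

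Cdh2 was higher in the mutant cells. Wild-type cells ranged from 0 to 89.9 FPKM with a median of 20 FPKM, and mutant cells from 0 to 339 FPKM with a median of 39.6 FPKM. The lower parts of the ranges overlapped, and 25 mutant cells lay above the highest wild-type cell. Detection was 22 of 33 (66.7%, 48.2 to 82%) in wild type and 72 of 93 (77.4%, 67.6 to 85.4%) in the mutant. The relative difference was 1.45 over all cells and 1.80 over unmarked cells, and 13 of 14 alternative settings kept it past 2-fold. Cdh2 lies at chr18:16588877-16809246 on the minus strand.

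Cdh6 (K-cadherin, known from kidney and neural crest) was found in few wild-type cells. Of 33 cells 4 held it (12.1%, 3.40 to 28.2%), with 45.8, 35.9, 12.2 and 1.47 FPKM. In the mutant 33 of 93 held it (35.5%, 25.8 to 46.1%), up to 310 FPKM, and 10 of these were above the highest wild-type cell. The median was 0 FPKM in both genotypes and the relative difference was 1.58, past 2-fold in 12 of 13 alternative settings. Cdh6 lies at chr15:13034200-13173639 on the minus strand. Cdh3 (P-cadherin), the tandem neighbour of Cdh1, reached 33.5 FPKM in wild type (13 of 33 cells at 1 FPKM, 39.4%) and 92.5 FPKM in the mutant (28 of 93 cells, 30.1%), and the relative difference was 0.43. Cdh3 lies at chr8:106510891-106557297 and Cdh1 at chr8:106603351-106670246 on the same strand, 46053 bases apart.

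In the genotype comparison 9 of the 10 genes passed the filter on low values (detected in at least 20% of cells, mean of both groups), and Krt20 did not. Cdh6 passed it only through the mutant, the group in which it was then higher, so its call is no separate support. Cdh2 and Cdh6 were past 2-fold higher and Epcam and Krt19 past 2-fold lower, 4 of 9, where 9.18% of all 7291 genes tested were past 2-fold in either direction, 2.73% higher and 6.45% lower. Over unmarked cells Cdh2, Cdh6 and Krt19 were past 2-fold, against 12% of 7075 genes. With a pseudocount of 10 in place of 1, only Krt19 was past 2-fold.

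**Figure D3:**
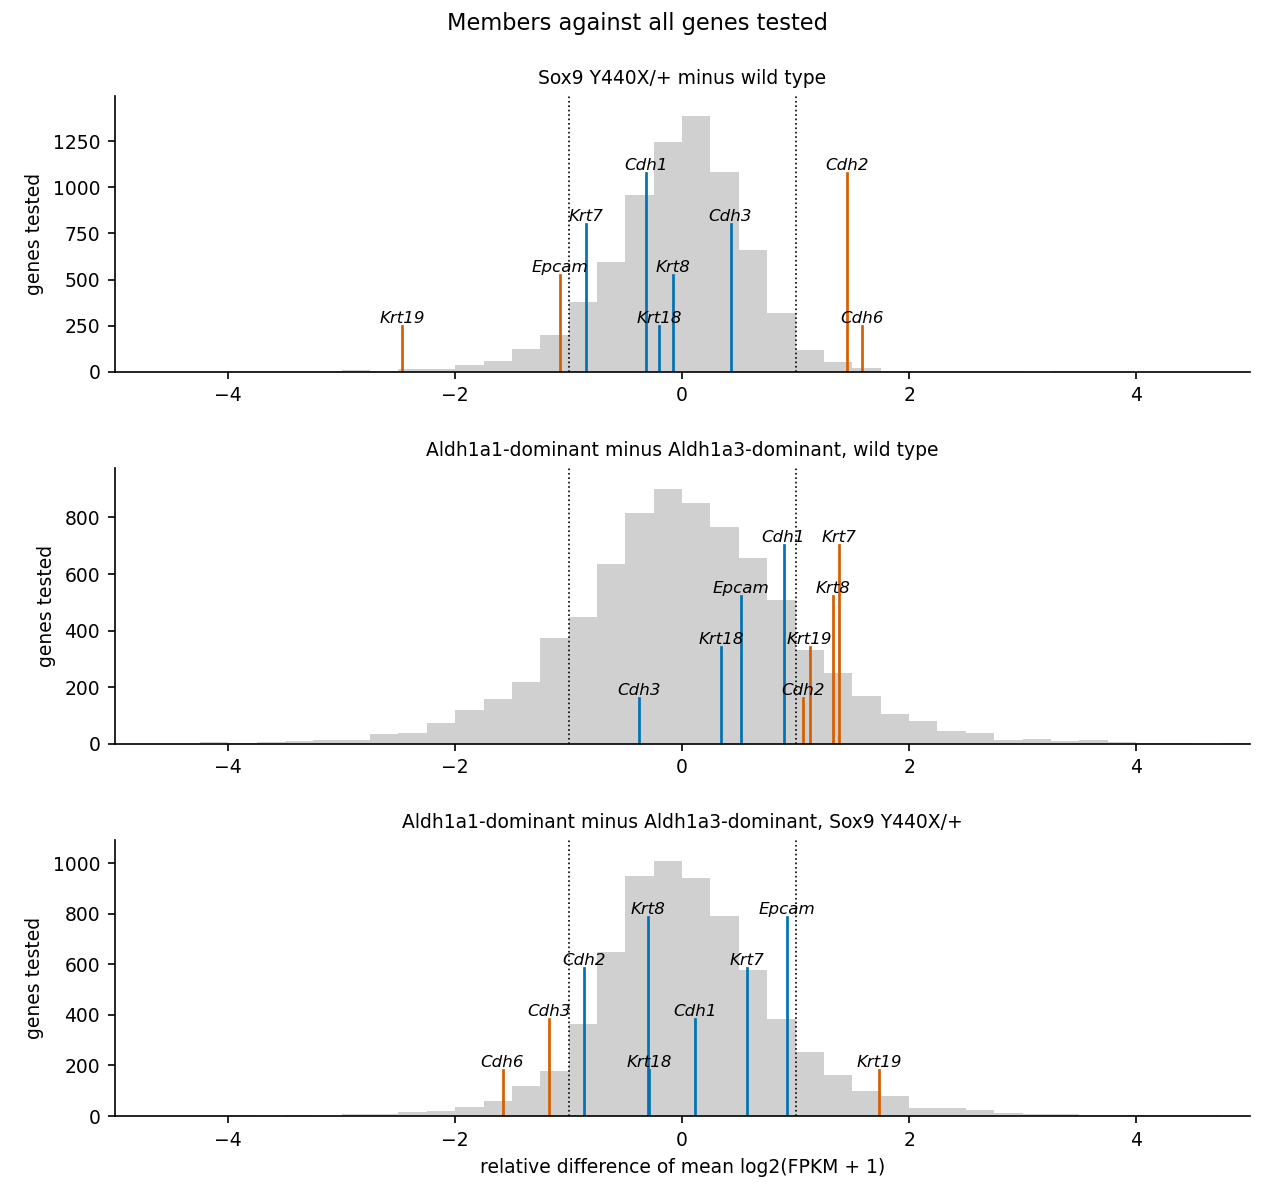
Relative difference of mean log2(FPKM + 1) of the members (lines; orange past 2-fold, blue within) over the histogram of all genes tested (grey), for Sox9 Y440X/+ minus wild type (top) and Aldh1a1-dominant minus Aldh1a3-dominant cells in wild type (middle) and mutant (bottom); dotted lines mark 2-fold and the height of a line has no meaning. Krt19 lies at -2.46 in the top panel and on the positive side in the other panels (1.12 and 1.74).

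Cdh1 and Cdh2 were often detected in the same cells. Both passed 1 FPKM in 60.6% of wild type (20 of 33 cells, 42.1 to 77.1%) and 53.8% of the mutant (50 of 93 cells, 43.1 to 64.2%). Only Cdh1 was found in 8 wild-type and 12 mutant cells, only Cdh2 in 2 and 22 cells, and neither in 3 and 9 cells. Cdh2 was detected in 80.6% of the 62 mutant cells with Cdh1 and in 71% of the 31 without it, and the exact intervals overlapped (68.6 to 89.6% and 52 to 85.8%). Over the 103 unmarked cells the shares were 85% of 80 and 87% of 23. Pearson's r of their levels was 0.16 over 126 cells and 0.01 over the 103 unmarked cells. Among unmarked cells it was 0.38 over 28 wild-type and -0.10 over 75 mutant cells.

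The ratio of Cdh1 to Cdh2 transcripts varied much more than that of Krt8 to Krt18. Over the 70 cells with both, the log2 ratio of Cdh1 to Cdh2 had a median of -0.29, a range from -5.08 to 4.44 and an SD of 2.03, and 30 cells lay within 2-fold. The SD of the Krt8 to Krt18 ratio was 0.993 over its 115 cells. Cdh1 and Cdh2 are far lower than the keratins, and how much of the spread is sampling of few transcripts was not tested. The median ratio was 0.23 over 20 wild-type and -0.64 over 50 mutant cells.

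The marker sets divided the members sharply. In the 11 cells with mesenchymal markers Epcam was detected in 1 cell, Krt8 in 3, Krt18 in 2, and Cdh1, Krt7 and Krt19 in 1 each. The same wild-type cell accounts for the single detections: it held all 8 mesenchymal markers and also 92.6 FPKM of Epcam, 394 FPKM of Krt8, 398 FPKM of Krt18 and 375 FPKM of Aldh1a3. Cdh2 was detected in 4 and Cdh6 in 3 of the 11 cells. All 8 sac epithelium genes outside the set were below 1 FPKM in all 9 mutant cells of this class.

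The 12 cells with mitochondria-rich markers all held Epcam, Krt8 and Krt18, and differed from unmarked cells in the cadherins. Cdh2 was detected in 2 of these 12 cells (16.7%, 2.09 to 48.4%) and in 88 of 103 unmarked cells (85.4%, 77.1 to 91.6%). Cdh1 was detected in 9 of 12 (75%) and 80 of 103 (77.7%) cells. Only 1 of the 12 cells held both, against 68 of 103. Cdh3 was found in 41 of 103 unmarked cells (39.8%) and in 0 of these 12, where a count of 0 limits the share to 25%.

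Keratins differed in these cells too. Krt7 was detected in 10 of 12 cells with a median of 47.9 FPKM, and in 73 of 103 unmarked cells (70.9%) with a median of 11.9 FPKM. It made up a median of 3.46% of the keratin level in the 12 cells and 0.434% in the unmarked cells. Krt19 was detected in 6 of 12 cells with a median of 8.03 FPKM, against 78 of 103 and 142 FPKM. The 12 cells had a median of 5531 listed genes and the unmarked ones 4580. Summed mesenchymal markers ranged from 0 to 1575 FPKM in the 12 cells and from 0 to 94.7 FPKM in the unmarked ones; Col3a1, Pdgfra and Prrx1 were at 0 in all 12, and 1 of the 12 held 3 mesenchymal markers. The part of these markers and of depth in these differences was not tested.

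**Figure D4:**
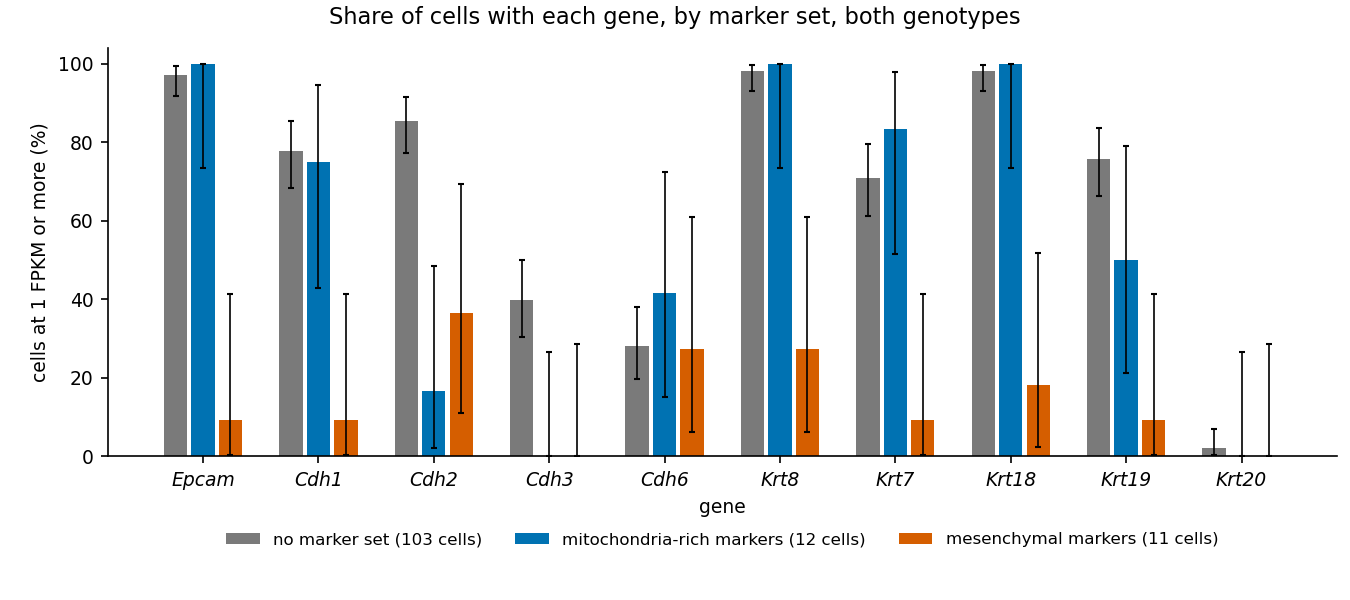
Share of cells at 1 FPKM or more for each gene, both genotypes together. The classes are the 103 unmarked cells (in the legend, no marker set), the 12 with mitochondria-rich markers and the 11 with mesenchymal markers. Error bars are exact Clopper-Pearson 95% intervals over cells. Epcam, Krt8 and Krt18 are at or near 100% in the first 2 classes and low in the last, while Cdh2 is at 85.4% in unmarked and 16.7% in mitochondria-rich-marker cells.

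The contrast between Aldh1a1-dominant and Aldh1a3-dominant cells was described in each genotype separately. In wild type Cdh2 had a median of 28.8 FPKM (0 to 89.9) in the 14 Aldh1a1-dominant cells and of 4.92 FPKM (0 to 80.9) in the 17 Aldh1a3-dominant cells. In the mutant the medians were 39.6 FPKM (0 to 339) over 41 cells and 57.9 FPKM (0 to 299.8) over 36 cells. The relative difference, Aldh1a1-dominant minus Aldh1a3-dominant, was 1.06 in wild type and -0.86 in the mutant, and the difference between these values was not tested. Without the wild-type cell whose title has the mutant prefix the wild-type value was 0.93. Ranges overlapped in both genotypes.

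Cdh2 was detected in 11 of 14 Aldh1a1-dominant and 9 of 17 Aldh1a3-dominant wild-type cells, and in 34 of 41 and 32 of 36 mutant cells. The 3 wild-type cells with mitochondria-rich markers were all Aldh1a1-dominant and lacked Cdh2. Over unmarked cells it was therefore detected in 11 of 11 Aldh1a1-dominant and 8 of 15 Aldh1a3-dominant wild-type cells, with a relative difference of 2.09. Among unmarked mutant cells it was 32 of 34 Aldh1a1-dominant and 32 of 35 Aldh1a3-dominant cells, with a relative difference of -0.27.

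Krt8 had a median of 1330 FPKM (416 to 3484) in wild-type Aldh1a1-dominant cells and 778 FPKM (0 to 1998) in wild-type Aldh1a3-dominant cells, with a relative difference of 1.33. Over unmarked cells this fell short of 2-fold at 0.80. In the mutant the medians were 1356 FPKM (195 to 3843) and 1384 FPKM (265 to 4147), with a relative difference of -0.30, which was -0.03 over unmarked cells and 0.02 with the log2 of mean FPKM. Krt18 differed less, by 0.35 in wild type and -0.29 in the mutant.

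By mean log2(FPKM + 1) over all cells of the classes, Krt19 was higher in Aldh1a1-dominant cells of both genotypes. In wild type its median was 319 FPKM (48.4 to 894) against 307 FPKM (0 to 696), and the relative difference of the means of logs was 1.12. The medians were close, 3 Aldh1a3-dominant cells had no Krt19, and in cells with 3000 to 5000 listed genes (3 against 8) the relative difference was -0.20. Of the summed keratin level Krt19 made up a median of 8.99% in wild-type Aldh1a1-dominant and 14.1% in Aldh1a3-dominant cells. The mutant shares were 4.26% and 0.848%. In the mutant the median was 139 FPKM (0 to 806) against 37.2 FPKM (0 to 569), it was detected in 32 of 41 against 20 of 36 cells, and the relative difference was 1.74. Krt7 was higher in wild-type Aldh1a1-dominant cells by 1.39 (13 of 14 against 12 of 17 cells), and by 0.57 in the mutant, which is within 2-fold.

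Epcam was detected in all 14 wild-type and all 41 mutant Aldh1a1-dominant cells. Its medians were 917 and 875 FPKM in wild-type Aldh1a1-dominant and Aldh1a3-dominant cells, and 796 and 414 FPKM in the mutant. Below 500 FPKM were 24 of 36 mutant Aldh1a3-dominant and 10 of 41 mutant Aldh1a1-dominant cells, against 5 of 17 and 1 of 14 in wild type. The relative difference of 0.93 in the mutant did not pass 2-fold, and it was 1.16 over unmarked cells.

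Cdh6 and Cdh3 were higher in Aldh1a3-dominant cells of the mutant. Cdh6 was detected in 18 of 36 Aldh1a3-dominant cells (median 5.01 FPKM, 0 to 310) and 12 of 41 Aldh1a1-dominant cells (median 0 FPKM, up to 82.7), and the relative difference was -1.58. In wild type it was found in 3 of 17 and 1 of 14 cells and did not pass the filter. Cdh3 passed 1 FPKM in 16 of 36 and 11 of 41 cells, and its relative difference of -1.17 was -0.99 over unmarked cells. In wild type Cdh3 differed by -0.38, and Cdh1 by 0.89 in wild type and 0.11 in the mutant.

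Counted together, Cdh2, Krt7, Krt8 and Krt19 were past 2-fold higher in Aldh1a1-dominant wild-type cells, 4 of the 8 genes tested, and none was past 2-fold lower. In this comparison 28% of all 7756 genes tested were past 2-fold in either direction, 14.1% higher and 13.9% lower. Over unmarked cells Cdh2, Krt7 and Krt19 were past 2-fold, against 30.7% of 7647 genes. In the mutant Krt19 was past 2-fold higher and Cdh3 and Cdh6 past 2-fold lower, 3 of 9 genes tested, against 17.1% of 6833 genes, 10.6% higher and 6.51% lower. Over unmarked mutant cells Epcam, Krt19 and Cdh6 were past 2-fold, against 18.2% of 6800 genes.

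**Figure D5:**
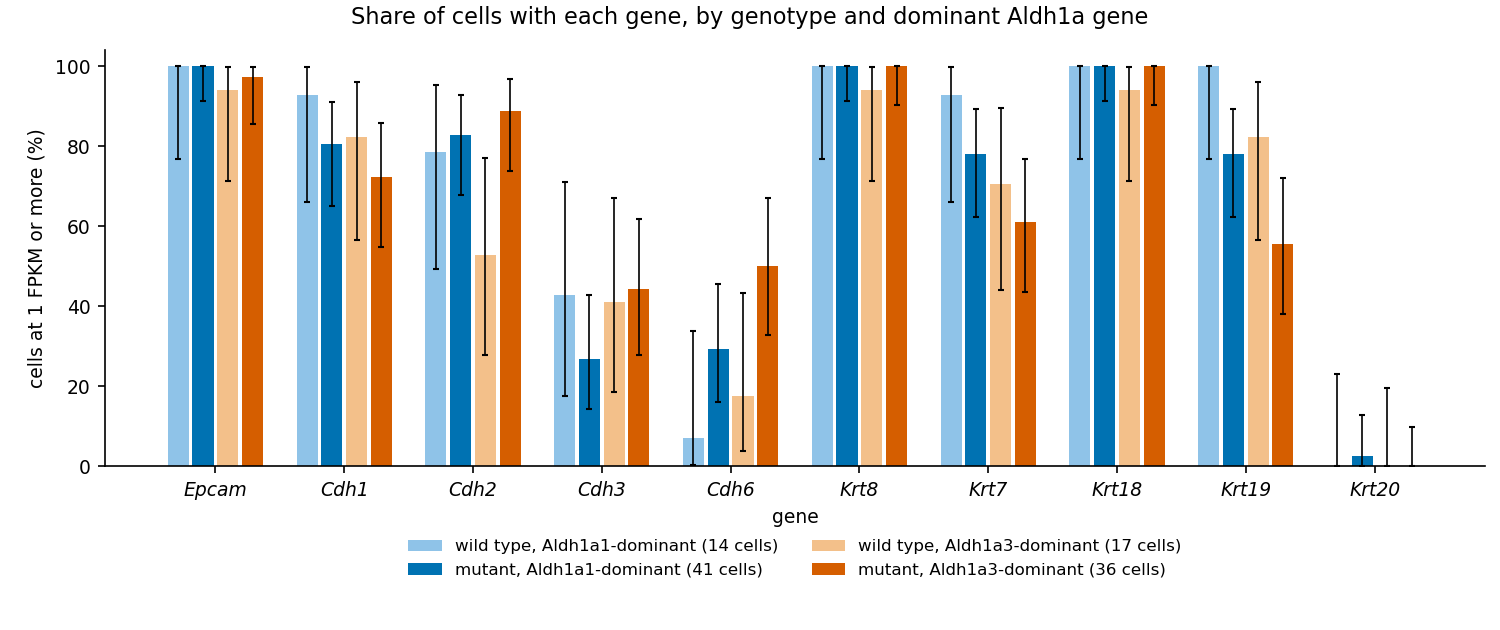
Share of cells at 1 FPKM or more for each gene in Aldh1a1-dominant and Aldh1a3-dominant cells of wild type (light) and Sox9 Y440X/+ (dark); error bars are exact Clopper-Pearson 95% intervals over cells. In Aldh1a3-dominant cells Cdh2 is at 9 of 17 in wild type and 32 of 36 in the mutant and Cdh6 at 3 of 17 and 18 of 36, and Krt19 is lower in the mutant in both classes.

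Within the 2 classes the genotypes differed most in Aldh1a3-dominant cells. There Cdh2 (2.98), Cdh3 (1.01), Cdh6 (2.36), Krt8 (1.88) and Krt18 (1.35) were past 2-fold higher and Krt19 (-2.31) past 2-fold lower in the mutant, 6 of 9 genes tested against 19.2% of 7203 genes. Cdh6 again passed the filter only through the mutant. Both wild-type cells with mesenchymal markers are in this class. Over unmarked cells Cdh2 (3.08), Cdh6 (2.24), Krt8 (1.25) and Krt19 (-2.57) were past 2-fold again, Epcam (-1.08) was past 2-fold lower, and Cdh3 (0.89) and Krt18 (0.62) were not past it, against 21.3% of 7090 genes. In Aldh1a1-dominant cells Cdh2 (1.06) and Krt19 (-1.69) were past 2-fold, 2 of 8 genes tested against 17.5% of 7470 genes. Over unmarked Aldh1a1-dominant cells Krt19 (-1.41) and Krt7 (-1.04) were past 2-fold lower and Cdh2 (0.73) was not past it, against 23.5% of 7190 genes. These comparisons share cells with those above and add no separate evidence. The difference between the classes was not tested.

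Cdh1 and Cdh2 were co-detected in both classes. In wild type this was 10 of 14 Aldh1a1-dominant (41.9 to 91.6%) and 9 of 17 Aldh1a3-dominant cells (27.8 to 77%), and in the mutant 28 of 41 (51.9 to 81.9%) and 22 of 36 (43.5 to 76.9%), with overlapping exact intervals. All 10 mutant Aldh1a3-dominant cells without Cdh1 held Cdh2, whereas none of the 3 such wild-type cells did. Of those 3 cells 1 held mesenchymal markers and no member at 1 FPKM, and a count of 0 of 3 sets no limit on the share. Krt8 and Krt18 were together in 14 of 14 and 16 of 17 wild-type cells and in all 41 and all 36 mutant cells of the classes. The 16 mutant cells with neither Aldh1a gene held the pair in 6 cells and both cadherins in 0 cells, a count that limits the share to 18.8%. Of these 16 cells 9 held mesenchymal markers.

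Genes that act with the members were described through lists of known partners, by counts and without a test. Of 12 tested genes of the adherens junction, among them the catenins that bind cadherin tails, none was past 2-fold between genotypes, with a median relative difference of 0.24 (0 over all genes tested, by construction); vinculin (Vcl), which ties catenin to actin, was highest at 0.92. Of 6 tested desmosome genes none was higher and Pkp3 and Perp were past 2-fold lower, where 6.45% of all genes tested were lower and 9.18% past 2-fold either way. Perp, a membrane protein of desmosomes, had a median of 291 FPKM in wild type and 131 FPKM in the mutant and a relative difference of -1.62. It was also higher in Aldh1a1-dominant cells, by 3.09 in wild type and 4.35 in the mutant. Of other cadherins 2 were tested, Cdh10 and Cdh11, and neither was past 2-fold between genotypes. Cdh10 was past 2-fold higher in Aldh1a1-dominant cells, by 1.23 in wild type and 1.51 in the mutant, and Cdh11 was within 2-fold in both. Of the adherens junction genes only Jup was past 2-fold between the classes, higher in Aldh1a1-dominant mutant cells by 1.61. Of all genes tested 14.1% were past 2-fold higher in wild type and 10.6% in the mutant.

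Of 16 other listed keratins 2 were tested, and Krt17, a type I keratin of stratified and injured epithelia, was past 2-fold lower in the mutant at -1.76. Of all genes tested between genotypes 6.45% were past 2-fold lower and 2.73% higher, and lists this short cannot be set firmly against these shares. Krt17 passed 1 FPKM in 13 wild-type and 12 mutant cells, so it passed the filter on low values only through wild type. Of 5 tested genes that link keratin filaments to junctions or to the basement membrane, plectin (Plec) was past 2-fold higher, at 1 on the log2 scale. Of 6 tested Epcam partners Spint2 was past 2-fold lower at -1.22 (6.45% of all genes), and at -0.78 over unmarked cells it was not. In Aldh1a1-dominant cells 3 of these 6 were past 2-fold higher in wild type (Cldn7, Spint1 and St14) and 4 of 6 in the mutant (the same 3 and Cd9), against 14.1% and 10.6% of all genes tested.

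Factors of the epithelial state and of its loss were listed too. Of 5 tested epithelial regulators none was past 2-fold between genotypes (9.18% of all genes tested), while Klf5 and Elf3 were past 2-fold higher in Aldh1a1-dominant cells of both genotypes, at 2.21 for Klf5 in wild type and 2.98 for Elf3 in the mutant. With Esrp2 this made 3 of 5 in wild type, where 14.1% of all genes tested were higher, and 2 of 5 in the mutant, where 10.6% were. Within Aldh1a3-dominant cells Grhl2 (1.11) was past 2-fold higher and Elf3 (-1.44) past 2-fold lower in the mutant, against 19.2% of all genes tested. Over unmarked cells of that class Grhl2 was at 0.97 and Elf3 at -1.72. Within Aldh1a1-dominant cells none of the 5 was past 2-fold between genotypes. Of the 8 listed mesenchymal transition genes Vim and Fn1 were tested. Vim, the intermediate filament protein of mesenchymal cells, was past 2-fold lower in the mutant at -1.10 and at -1.62 over unmarked cells. Over all cells 6.45% of all genes tested were lower. Within the classes the genotype difference of Vim was -2.67 in Aldh1a1-dominant and -0.42 in Aldh1a3-dominant cells. Aldh1a1-dominant minus Aldh1a3-dominant, Vim differed by 2.34 in wild type and 0.09 in the mutant. Fn1, which encodes the matrix protein fibronectin, had a relative difference between genotypes of 0.65 and of 0.04 over unmarked cells, within 2-fold in both. Between the classes Fn1 differed by -1.45 in wild type and -1.37 in the mutant, where 13.9% and 6.51% of all genes tested were lower. Snai1, Snai2, Zeb1, Zeb2, Twist1 and Twist2 did not pass the filter on low values.

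For the members other than Epcam, Krt8 and Krt18, few genes were alike in pattern. Krt19 came closest to Mmp23 (r = 0.68), a membrane metalloproteinase gene, then Fxyd3 (0.66), a regulator of the sodium pump, and Agt (0.61), over 126 cells, and to Mmp23 (0.62) over unmarked cells. For Krt7 the highest was Cldn7 (0.48), for Cdh1 Hspb1 (0.50), for Cdh2 Mospd2 (0.44), and for Cdh3 and Cdh6 Cpxm2 and Lrig2 (0.34 each). Correlations of this size in sparse values are no finding.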

How the data were processed

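Single cells were sequenced by Smart-seq2, per the labels' protocols. The authors deposited 1 table of FPKM values for 126 cells, in 48555 rows and 48490 gene identifiers, and rows of the same identifier were summed here. Among tools, the submitters' processing notes list Cufflinks and HTSeq beside HISAT2 and SAMtools 0.1.18, with build mm10. Strand setting, annotation and filters: not given in the sources used here. FPKM hold no counts, so the depth of a cell is unknown and genes listed above 0 stand in for it, of which 1.21% of values are below 1e-06 FPKM. Gapdh and Rplp0 are listed at 0 in 1 cell each, so a 0 can be a failed estimate. Each genotype is 1 sample, so no test was made. Differences are of mean log2(FPKM + 1), less the median over genes detected in at least 20% of cells. The exact intervals are Clopper-Pearson (SciPy 1.17.1, Python 3.11.15, pandas 2.3.3) and a share of 0 is given the limit of 3 counts. The difference was also computed on simulated data with 200 changed genes. No rate of missed or false calls is given here, so the simulation does not show how reliable the calls are, including those of sparse genes such as Cdh3 and Cdh6. Likeness is Pearson's r over cells, and the 3 most alike genes were taken. All members are named whatever their values, as are the highest and lowest genes of each of 8 lists. The members and lists were chosen with earlier results of these data known. Promoters are from RefSeq, GRCm38.p6. Opposite-strand genes overlap Cdh2 (Gm15485, detected in 2 cells), Krt7 (Gm671) and Krt8 (Gm36026), and without a stated strand setting their reads cannot be told apart.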

Additional observations from a re-analysis of the deposited data

How the results depend on the processing

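With 1 sample a genotype, cells of unknown depth and a genotype that shares its split with the title prefix and Y-linked transcripts, the values describe these cells only. No paired analysis was possible because the replicate numbers are only names in accession order, which tie no cells together, and no test was made. The 4 members past 2-fold between genotypes became 1 with a pseudocount of 10 and 2 with genes detected in at least 50% of cells. The 4 members past 2-fold between dominance classes in wild type became 1 with a pseudocount of 10, 1 with the log2 of mean FPKM, and 2 without cells above 6000 listed genes. The 3 in the mutant became 5 with a pseudocount of 0.1, 1 with a pseudocount of 10 and 1 with genes detected in at least 50% of cells. Without marker-holding cells the mutant share with Cdh1 and Cdh2 was 65.3%, and that with Krt8 and Krt18 97.3%. The wild-type share with Krt8 and Krt18 was 100% without marker-holding cells, without cells above 6000 listed genes, and in cells with 3000 to 5000. In that window Krt19 reversed between classes in wild type, at -0.20, with 3 Aldh1a1-dominant cells. The cause was not tested. Of the 82 recomputed values of these counts and shares, 69 kept within 1.5 times or within the interval. Leaving out the wild-type cell with the mutant prefix was chosen after seeing the data and moved none of them past these limits.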
